A study of Homo sapiens with 6 samples.

Results

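The 9 genes described here restrain p53 or belong to its family: MDM2, MDM4, PPM1D, CCNG1, RCHY1, RFWD2, USP7, TP63 and TP73. They were picked by symbol from the authors' annotated gene table, on reference chromosomes only, and their reads were taken by Ensembl identifier from the count file of each library. All 9 were found among the 63152 genes counted. The study used A549, an established human lung adenocarcinoma cell line whose p53 is wild type, as background. In the 3 siRPS19 libraries the cells had received 10 nM of a siGENOME SMARTpool siRNA against RPS19, a protein of the small ribosomal subunit. In the 3 siOTP libraries they had received the same dose of the ON-TARGETplus non-targeting control. Both groups were reverse transfected with the same lipid reagent, RNA was taken at 72 hours, and the labels call the 3 samples of a group biological replicates and name no other agent. The pool and the control come from different siRNA product lines, so target and reagent differed together.

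As background, p53 is a short-lived transcription factor that is held low by ubiquitin ligases, above all MDM2, which binds p53 together with its relative MDM4. MDM2 is itself a target gene of p53, so the pair forms a negative feedback loop. When ribosome assembly is disturbed, free ribosomal proteins such as RPL5 and RPL11, bound to 5S ribosomal RNA, can bind MDM2 and block its ligase activity.

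MDM2 is transcribed from an upstream start and from a start in its first intron, and the intronic start is the one known to respond to p53. RefSeq promoter windows of the GRCh38.p14 build, running from 250 bases before to 50 bases after each start, were searched for the p53 response element. The element was taken by name as 20 letters made of a pair of 10-letter sites with no spacer, with the core C and G letters required and at most 2 other mismatches. Its consensus reads the same on both strands. Such a match was present in a window of 2 of the 9 genes, MDM2 and TP73, against 98 of 27305 genes with a window (0.359%). The sequences below are those 2 matches in their surroundings, shown because MDM2 is the gene that differed most here and TP73 the family member with a match. They are written 5′ to 3′ on the plus strand, with the matched letters in capitals; the MDM2 stretch is chr12:68808867-68809016 and the TP73 stretch is chr1:3690522-3690671.

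MDM2: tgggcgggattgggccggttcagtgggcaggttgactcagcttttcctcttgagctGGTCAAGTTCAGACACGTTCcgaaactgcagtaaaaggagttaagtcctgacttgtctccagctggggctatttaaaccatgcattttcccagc
TP73: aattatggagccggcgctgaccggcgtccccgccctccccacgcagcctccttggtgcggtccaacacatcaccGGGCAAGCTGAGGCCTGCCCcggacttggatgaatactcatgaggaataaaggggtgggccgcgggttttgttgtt

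In MDM2 the match began 94 bases before a RefSeq start that lies downstream of the gene's other annotated start, and a neighbouring start shared it. In TP73 it began 76 bases before an internal start. At the closest position in any of their windows, MDM4 and USP7 had 5 mismatches, and PPM1D, CCNG1, RCHY1 and RFWD2 (listed in RefSeq as COP1) had 7. The single TP63 window had no position with all 4 core letters. A match is a match of letters only, and its absence from these 300 bases is no statement about p53 binding elsewhere in a gene. Only the closest position of each window was kept, so the printed letters in lower case can hold further p53 elements.

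Libraries held 20814110 to 23889372 counts on genes. RPS19 (ENSG00000105372) was at 1374 to 1567 CPM (counts scaled to a common library size, with TMM factors) in siOTP and at 36.0 to 44.6 CPM in siRPS19, which was 35.3-fold lower. Of 17171 genes tested, 78.3% passed edgeR's quasi-likelihood test at an adjusted p of 0.05, with 39.5% higher and 38.9% lower in siRPS19. Scaled to library totals in place of TMM, the median gene sat at a log2 fold change of 0.31 in place of 0.02, and 65.8% of calls were higher in place of 50.4%. Markers of simple epithelium, mostly KRT7 and KRT8, summed to 5184 to 5609 CPM in siOTP and 3151 to 3530 CPM in siRPS19. Of these 5 markers, 4 fell, while CDH1 rose from 30.6 CPM in siOTP to 50.0 CPM in siRPS19. Leukocyte markers summed to 1.49 to 2.28 and 1.85 to 2.90 CPM, with no count on CD3E. The endothelium markers CDH5 and VWF summed to at most 0.304 CPM. PECAM1, also on that marker list, was not matched by symbol on reference chromosomes and is not in the sum. Fibroblast markers, mostly COL1A1, summed to 32.3 to 39.9 and 14.6 to 20.3 CPM. Alveolar markers, mostly ABCA3, summed to 61.8 to 66.6 and 166 to 182 CPM. The lung lineage factor NKX2-1 and the surfactant gene SFTPA1 had no count in any library.

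Among the 9 genes, MDM2, PPM1D, CCNG1 and RFWD2 rose in siRPS19, USP7 and TP63 fell, MDM4 and RCHY1 did not pass the test, and TP73 was too low to test. Thus 6 of 8 tested genes were called, beside 78.3% of all genes, a share near the background. The 4 rises stand beside 39.5% of all genes and the 2 falls beside 38.9%. The sizes were uneven. MDM2, CCNG1 and PPM1D, 3 of the 8 tested genes, were called at least 2-fold higher, beside 18.5% of all tested genes. Each of these 3 rose more than 3-fold, while RFWD2, USP7 and TP63 moved less than 2-fold. The libraries of both groups kept apart in 7 of the 8 genes, all but MDM4, beside groups that did not overlap in 79.7% of all tested genes. In these bulk samples a larger share of cells with a given mRNA and more of it per cell cannot be told apart, and mRNA levels do not give protein levels.

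**Figure D1:**
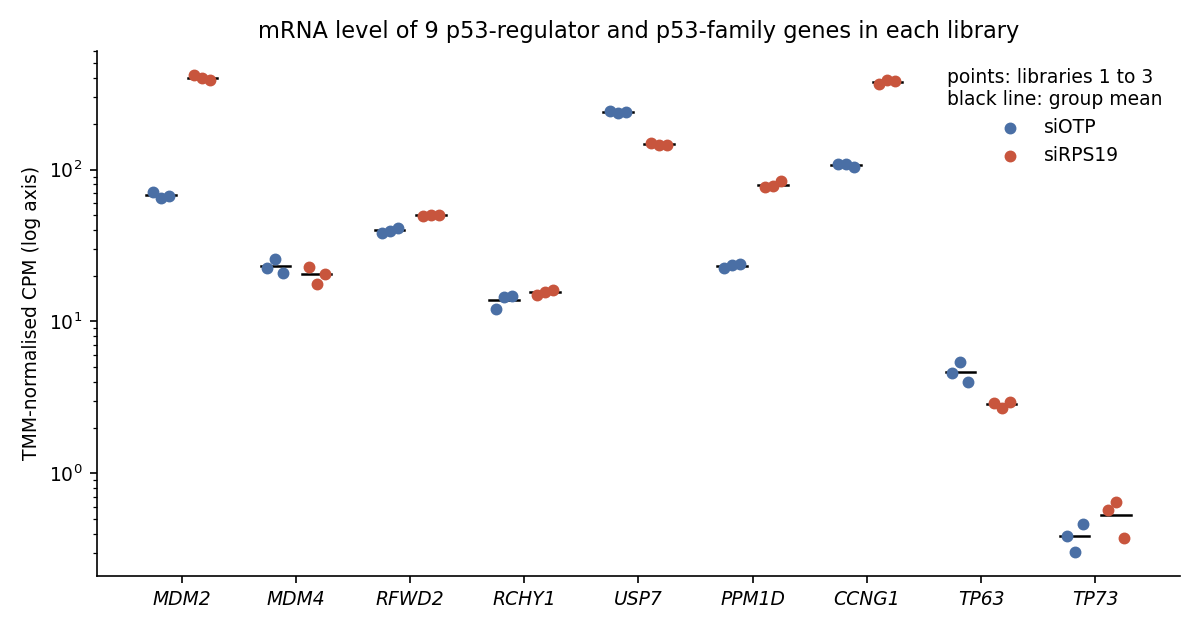
TMM-normalised CPM (log axis) of each of the 9 genes in the 3 siOTP (blue) and 3 siRPS19 (red) libraries, with a black line at each group mean. MDM2, PPM1D and CCNG1 stand far above their siOTP libraries, USP7 and TP63 lie below theirs, and the groups of MDM4 and of TP73 overlap.

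MDM2 (ENSG00000135679, chromosome 12, 69201956 to 69239214, plus strand, hg19) encodes the main ubiquitin ligase of p53 and rose most of the 9 genes. Its level was 70.8, 65.5 and 67.3 CPM in siOTP libraries 1 to 3 and 422, 399 and 391 CPM in siRPS19 libraries 1 to 3. The lowest siRPS19 library lay far above the highest siOTP library, and libraries within a group differed little. The mean went from 67.9 ± 2.72 CPM to 404 ± 16.2 CPM (SD, n = 3 each), a 5.95-fold rise with a log2 fold change of 2.57 ± 0.04 (SE) (quasi-likelihood test of edgeR, adjusted p = 3.75e-21). Within same-numbered replicates the log2 difference was 2.58, 2.61 and 2.54. Ranked by log2 fold change, MDM2 was number 709 from the top of the 17171 genes. These counts are for the whole gene and do not separate transcripts from its upstream and intronic starts. The last 3238 bases of MDM2 overlap, on the opposite strand, the carboxypeptidase M gene (symbol CPM), whose level was 27.2 ± 4.26 CPM in siOTP and 19.5 ± 4.11 CPM in siRPS19 (SD, n = 3 each). Strand was not stated for these libraries, so reads of that stretch cannot be told apart between the genes.

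MDM4 (ENSG00000198625, chromosome 1, 204485511 to 204542871, plus strand) encodes the MDM2 relative that binds and inhibits p53 but has little ligase activity of its own. Its level was 22.6, 25.8 and 20.8 CPM in siOTP and 23.0, 17.7 and 20.6 CPM in siRPS19. The groups overlapped, and the spread within each was wide for a gene of this depth, with a coefficient of variation of 11.0% and 12.9%. The means were 23.1 ± 2.53 and 20.4 ± 2.64 CPM (SD, n = 3 each), a log2 difference of -0.17 ± 0.10 (SE) (quasi-likelihood test of edgeR, adjusted p = 0.114). Only the pair numbered 2 differed by much, at -0.54, where pairs 1 and 3 were at 0.02 and -0.01. The sign depended on the scaling, with a log2 difference of 0.11 under library totals (adjusted p = 0.248). Leaving out siOTP library 3 or siRPS19 library 1 gave -0.25 with adjusted p = 0.0243 and 0.0194, and dropping the filter on low counts gave -0.22 with adjusted p = 0.00522.

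Because both genes act on p53 together, the ratio of MDM2 to MDM4 was taken in each library from CPM per kilobase of the authors' transcript length, which removes depth and scaling. It was 4.44, 3.61 and 4.60 in siOTP and 26.1, 32.0 and 26.9 in siRPS19. The same lengths were used for both groups, so they set the size of the ratio but not its fold difference. All siRPS19 libraries lay above all siOTP libraries. The mean ratio was 4.22 ± 0.534 and 28.3 ± 3.19 (SD, n = 3 each), and the mean log2 ratio differed by 2.75, or 6.73-fold. The exact two-sided permutation test gave p = 0.1, the smallest value that 10 splits of 3 against 3 libraries allow, and an exact sign-flip test over the 3 pairs gave its own smallest value, p = 0.25. Most of the difference lay in the numerator, since the log2 fold change was 2.57 for MDM2 and -0.17 for MDM4.

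**Figure D2:**
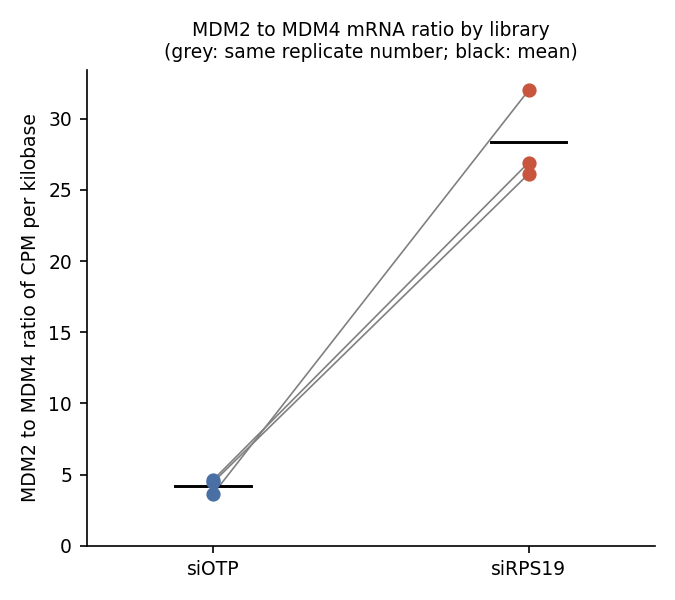
Ratio of MDM2 to MDM4 mRNA, each as CPM per kilobase, in the 3 siOTP and 3 siRPS19 libraries; grey lines join libraries of the same replicate number and black lines mark the group means. The siOTP libraries sit between 3.61 and 4.60 and the siRPS19 libraries between 26.1 and 32.0.

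RFWD2, also called COP1 (ENSG00000143207, chromosome 1, 175913967 to 176176629, minus strand), encodes a ubiquitin ligase that can target p53 along with transcription factors such as JUN. Its level was 38.5, 39.5 and 41.4 CPM in siOTP and 49.9, 50.2 and 50.0 CPM in siRPS19. The siRPS19 libraries were nearly identical to each other and all lay above the siOTP libraries. RFWD2 rose 1.26-fold, from 39.8 ± 1.50 CPM to 50.0 ± 0.183 CPM (SD, n = 3 each), with a log2 fold change of 0.33 ± 0.05 (SE) (quasi-likelihood test of edgeR, adjusted p = 3.99e-06). Under library totals its log2 fold change was 0.62, on a scale where the median gene stood at 0.31.

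RCHY1, also called PIRH2 (ENSG00000163743, chromosome 4, 76404247 to 76439974, minus strand), encodes a ubiquitin ligase of p53 that is itself a known p53 target. Its level was 12.1, 14.5 and 14.7 CPM in siOTP and 14.9, 15.7 and 16.1 CPM in siRPS19. The groups did not overlap, but the highest siOTP and the lowest siRPS19 library nearly met. The means were 13.8 ± 1.44 and 15.6 ± 0.640 CPM (SD, n = 3 each), a log2 difference of 0.18 ± 0.09 (SE) (quasi-likelihood test of edgeR, adjusted p = 0.0621). With the replicate number as a block the difference was again 0.18 and adjusted p was 0.0442. RCHY1 passed the test under library totals, at 0.46 with adjusted p = 3.53e-05, and under upper-quartile factors, at 0.35 with adjusted p = 0.000744. It also passed without siOTP library 3 (0.21, adjusted p = 0.0463) or without siRPS19 library 1 (0.23, adjusted p = 0.0367). It shares 819 bases with THAP6 on the opposite strand, which was at 13.1 ± 1.35 and 14.1 ± 1.33 CPM (SD, n = 3 each).

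USP7, also called HAUSP (ENSG00000187555, chromosome 16, 8985951 to 9058371, minus strand), encodes the deubiquitinase that removes ubiquitin from MDM2 and from p53. Its level was 242, 236 and 238 CPM in siOTP and 150.3, 146 and 146 CPM in siRPS19. All siRPS19 libraries lay below all siOTP libraries, and both groups were tight. USP7 fell 1.62-fold, from 239 ± 3.01 CPM to 147 ± 2.47 CPM (SD, n = 3 each), with a log2 fold change of -0.69 ± 0.04 (SE) (quasi-likelihood test of edgeR, adjusted p = 4.49e-13). Pairs of the same number differed by -0.69, -0.69 and -0.71. Under library totals the log2 fold change was -0.41 and remained past the test.

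PPM1D and CCNG1 are negative regulators that are known p53 target genes. PPM1D (ENSG00000170836, chromosome 17, 58677544 to 58741849, plus strand) encodes WIP1, a phosphatase that removes activating phosphates from p53 and its upstream kinases. Its level was 22.4, 23.5 and 23.8 CPM in siOTP and 77.1, 78.1 and 83.6 CPM in siRPS19. No siRPS19 library came near the siOTP range. PPM1D rose 3.43-fold, from 23.2 ± 0.747 CPM to 79.6 ± 3.45 CPM (SD, n = 3 each), with a log2 fold change of 1.78 ± 0.05 (SE) (quasi-likelihood test of edgeR, adjusted p = 2.69e-17).

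CCNG1 (ENSG00000113328, chromosome 5, 162864575 to 162873157, plus strand) encodes cyclin G1, which recruits the phosphatase PP2A to MDM2. Its level was 109, 108 and 105 CPM in siOTP and 369, 388 and 381 CPM in siRPS19. Again the groups lay far apart, and the libraries of a group close together. CCNG1 rose 3.53-fold, from 107 ± 2.30 CPM to 379 ± 9.43 CPM (SD, n = 3 each), with a log2 fold change of 1.82 ± 0.04 (SE) (quasi-likelihood test of edgeR, adjusted p = 1.43e-19). PPM1D and CCNG1 ranked 1468 and 1407 from the top among the 17171 genes by log2 fold change.

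**Figure D3:**
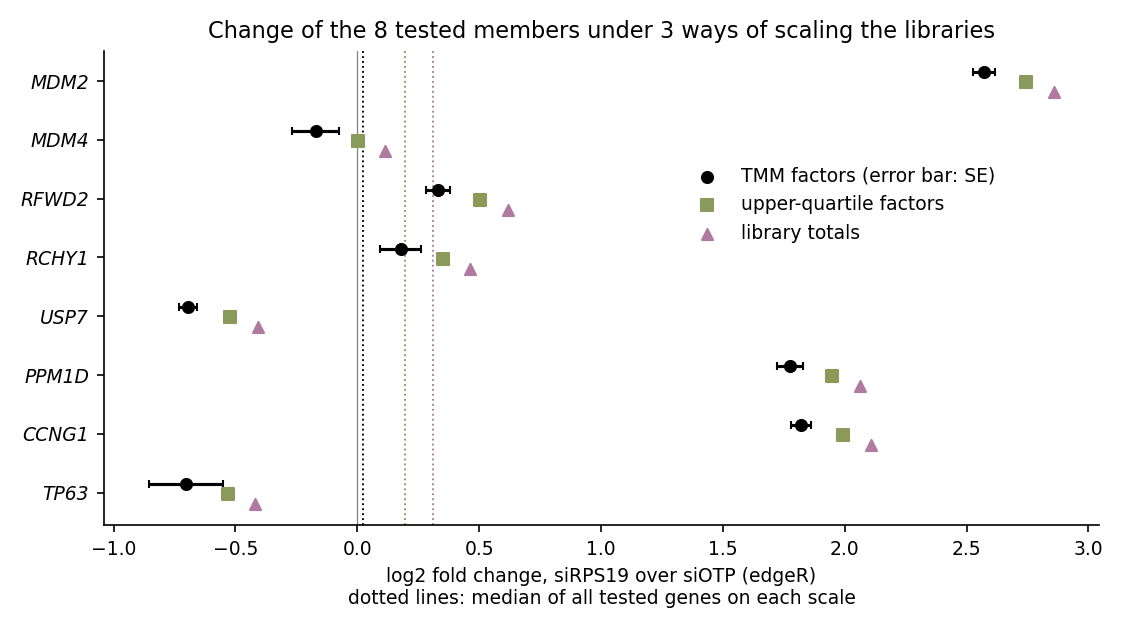
Log2 fold change of the 8 tested genes, siRPS19 over siOTP, under TMM factors (black, with SE), upper-quartile factors (green) and library totals (purple), with dotted lines at the median of all tested genes on each scale. MDM2, PPM1D and CCNG1 lie to the right and USP7 and TP63 to the left of 0 under all 3 scalings, whereas MDM4 crosses 0, from -0.17 under TMM factors to 0.11 under library totals.

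TP63 and TP73 encode the relatives of p53. Both genes make full-length forms, which can activate transcription, and shorter forms from internal starts that lack the main activation domain and can oppose p53, and counts per gene do not separate these forms. TP63 (ENSG00000073282, chromosome 3, 189349205 to 189615068, plus strand), the regulator of basal and squamous epithelium, held 95, 107 and 77 counts in siOTP and 76, 62 and 71 in siRPS19. On the normalised scale these were 4.56, 5.42 and 3.97 CPM against 2.92, 2.69 and 2.94 CPM, and the groups did not overlap. TP63 fell 1.63-fold, from 4.65 ± 0.729 CPM to 2.85 ± 0.140 CPM (SD, n = 3 each), with a log2 fold change of -0.70 ± 0.15 (SE) (quasi-likelihood test of edgeR, adjusted p = 0.000284). The pairs differed by -0.64, -1.01 and -0.43, the widest spread of the 6 called genes.

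Markers of basal and squamous epithelium were compared with TP63 because they accompany it in such tissue. Their summed level was 12.7 to 14.1 CPM in siOTP and 94.7 to 102 CPM in siRPS19, opposite in direction to TP63. All 3 tested markers of 8 (DSC3, TRIM29 and SOX2) rose, and most of the sum was the desmosomal cadherin DSC3, at 4.79 CPM in siOTP and 83.4 CPM in siRPS19. KRT14 had no count in any library, and KRT5, KRT6A, DSG3 and PKP1 had 0 to 5 counts. Their part in the TP63 result was not tested.

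TP73 (ENSG00000078900, chromosome 1, 3569084 to 3652765, plus strand) held 8, 6 and 9 counts in siOTP and 15, 15 and 9 in siRPS19. The groups overlapped at 9 counts, and the gene did not pass the minimum count for the test. Its exact Poisson 95% interval, for counting error only, was 4.12 to 17.1 in each library with 9 counts, which contains the other siOTP counts and both counts of 15. A difference was not detectable at this depth. With no filter the log2 difference was 0.42 with adjusted p = 0.454. WRAP73 and TP73-AS1, which share 242 and 218 bases with TP73 on the opposite strand, were far more abundant, at 23.7 ± 0.721 and 26.8 ± 2.48 CPM in siOTP and 30.4 ± 1.58 and 32.6 ± 0.929 CPM in siRPS19 (SD, n = 3 each).

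Levels of different genes were compared as CPM per kilobase of the authors' transcript length. These lengths run from 3096 bases for CCNG1 to 11385 bases for MDM4 and were not checked against the transcripts present. The order between genes rests on them, and the SDs do not cover this. In siOTP the order was CCNG1 at 34.7 ± 0.742, USP7 at 29.9 ± 0.377, RFWD2 at 9.25 ± 0.348, MDM2 at 8.47 ± 0.339 and PPM1D at 7.15 ± 0.230 (SD, n = 3 each). RCHY1 at 2.10 ± 0.219 and MDM4 at 2.03 ± 0.222 followed and did not differ beyond their spread, above TP63 at 0.624 ± 0.0978 and TP73 at 0.0568 ± 0.0118. In siRPS19 CCNG1 stayed highest, at 122 ± 3.05, and MDM2 at 50.4 ± 2.02 and PPM1D at 24.5 ± 1.06 stood above USP7 at 18.5 ± 0.310. The lower positions were RFWD2 at 11.6 ± 0.0425, RCHY1 at 2.37 ± 0.0975, MDM4 at 1.80 ± 0.232, TP63 at 0.382 ± 0.0188 and TP73 at 0.0789 ± 0.0213. MDM2 thus stood below USP7 in siOTP and above it in siRPS19.

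For each called gene, the tested genes with the most similar pattern over the 6 libraries were found by the Euclidean distance between log2 CPM values centred on each gene's mean, among 11490 genes with at least 5 CPM on average. With 3 libraries per group, this mainly picks genes with a similar fold change. Nearest to MDM2 were SPATA7, FAM210B and STRA6, at distances of 0.143, 0.145 and 0.158. Nearest to PPM1D were NEU1, TRIAP1 and CCDC90B, at 0.0943, 0.0948 and 0.0988. The CCNG1 pattern was closest to that of SOX4, ADCK3 and POLH, at 0.0613, 0.0786 and 0.0972. For RFWD2 the closest were LEPREL4, SSR4 and FBXO18, at 0.0384, 0.0418 and 0.0467, and for USP7 they were RARS, ADAR and CWC25, at 0.0410, 0.0415 and 0.0432. TP63 had DCAF16, ARHGEF25 and RP11-443P15.2 nearest, at 0.143, 0.155 and 0.176.

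The other genes of the pathway were taken as 8 lists of 132 genes, of which 130 were tested, and 54 were higher and 67 lower in siRPS19. Under TMM the counts below stand beside 39.5% of all tested genes higher and 38.9% lower, and the medians beside 0.02. Of the 54 higher genes, 28 are the list of genes activated by p53, chosen with its rise in these data known. Without that list the share of higher genes was below the background. The share of lower genes was above it with or without that list. Of 17 other ubiquitin ligases that act on p53, 7 rose and 6 fell, with a median log2 fold change of 0.06, both shares near those of all genes. FBXO22, CUL9 and WWP1 rose 2.61-fold, 2.40-fold and 2.35-fold, while DTL, the substrate receptor of a ligase active in S phase, fell 87.6-fold. Of 12 tested deubiquitinases of the pathway, 4 rose and 7 fell, with a median of -0.38. USP10, USP24 and USP5 fell 1.79-fold, 1.75-fold and 1.69-fold, beside the 1.62-fold fall of USP7, and ATXN3 rose 1.59-fold. Under library totals the 17 ligases counted 11 higher and 4 lower, and the 12 deubiquitinases 4 and 4. On that scale 9114 of all 17171 tested genes were called higher and 4734 lower. The 8 lists together counted 61 higher and 52 lower of 130 under library totals, and 60 and 60 under upper-quartile factors. With upper-quartile factors 8187 of all 17171 tested genes were called higher and 5505 lower.

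Ribosomal and nucleolar proteins that bind MDM2 mostly fell, with 18 lower and 2 higher of 21 tested and a median of -0.76. RPL5, at 357 ± 9.82 CPM in siOTP and 211 ± 7.13 CPM in siRPS19, fell 1.69-fold. RPL11, at 619 ± 6.28 and 383 ± 16.7 CPM (SD, n = 3 in each group), fell 1.62-fold. The nucleolar proteins NPM1, GNL3 and NCL fell 3.95-fold, 3.17-fold and 3.15-fold, and RPL37 fell 2.06-fold. The 2 that rose were PML, at 1.22, and RPS27L, at 0.87 on the log2 scale. Ribosomal protein genes have many processed pseudogenes, which the authors' counting could have drawn reads from or given reads to. CDKN2A, whose ARF product binds MDM2 and which is known to be deleted in A549, had 1 count in all 6 libraries together and was not tested.

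Other binding partners and kinases of MDM2 and MDM4 counted 2 higher and 13 lower of 15, with a median of -0.81. MTBP, a protein that binds MDM2, fell 5.12-fold, YWHAZ fell 2.65-fold, NUMB 2.20-fold and ABL1 2.11-fold. Kinases and acetyltransferases that activate p53 counted 6 higher and 10 lower of 17, with a median of -0.34. Under library totals this list counted 7 higher and 7 lower of 17, with a median of -0.05 beside 0.31 for all tested genes. That scaling called 9114 of all 17171 tested genes higher and 4734 lower. The checkpoint kinases CHEK1 and CHEK2 fell 6.82-fold and 1.81-fold, the methyltransferase PRMT5 2.08-fold and the acetyltransferase KAT8 1.66-fold. Enzymes and cofactors that restrain p53 counted 1 higher and 9 lower of 12, with a median of -0.71. The mitotic kinases AURKB and AURKA fell 66.1-fold and 39.0-fold, the lysine methyltransferase SETD8 4.33-fold and the demethylase KDM1A 1.72-fold.

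The list of partners and ligases of p63 and p73 counted 4 higher and 4 lower of 8, with a median of 0.12. It also takes in JMY and TP53BP1, known as partners of p53. The p73 coactivator YAP1 rose 1.51-fold and JMY rose 2.00-fold, while the ligases FBXO45 and ITCH fell 2.18-fold and 1.50-fold. All 28 genes activated by p53 were higher, with a median of 1.95, and CDKN1A stood at 73.1 ± 6.72 CPM in siOTP and 1104 ± 55.9 CPM in siRPS19 (SD, n = 3 each). This list was chosen with its rise in these data already known.

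**Figure D4:**
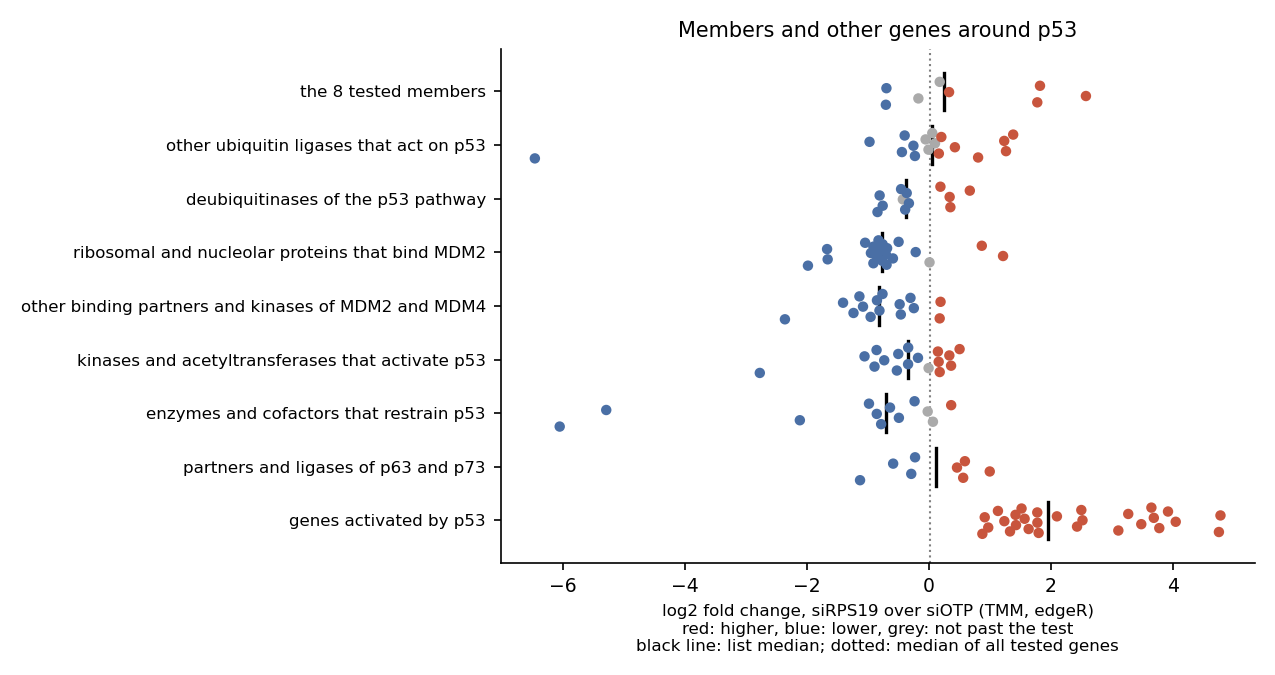
Log2 fold change, siRPS19 over siOTP, of the 8 tested regulators and relatives of p53 (the top row, marked members) and of 8 lists of other genes around p53, with red points higher, blue points lower and grey points not past the test; black lines are list medians and the dotted line is the median of all tested genes. The medians run from -0.81 for binding partners of MDM2 and MDM4 to 1.95 for genes activated by p53.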

How the data were processed

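Strand, counting mode and the annotation used were not given in the sources used here. As upstream tools, the submitters' processing notes list TopHat2 (2.0.8b), HTSeq, R (3.0.2) and DESeq, with the build hg19. The authors deposited whole-number read counts per Ensembl gene for each library, which every test used. They also deposited 1 RPKM value per group, together with group mean counts; for all 62729 genes it matched (mean count + 1) per kilobase and per group total within 0.0051 RPKM. The authors' RPKM served as 1 alternative, and their coordinates, symbols and transcript lengths were used throughout. Merged count tables whose columns name no sample were not used.

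The 5 entries that name no gene were left out: reads outside genes (3.39% to 3.85% of a siOTP library, 5.13% to 6.36% of a siRPS19 library) and ambiguous reads (8.10% to 8.24%, 7.50% to 7.60%) among them. Genes were kept with filterByExpr (minimum count 10, minimum total 15) and compared with edgeR 4.0.16 (TMM, robust quasi-likelihood test, Benjamini-Hochberg over 17171 genes, threshold 0.05) in R 4.3.3. Every adjusted p comes from this test unless another is named. Each SE is the log2 fold change over the root of F, and the code was tested on simulated data. An exact permutation test of 3 against 3 cannot go below 0.1. P-values set the difference between the groups against the spread between these replicates, and do not cover other cell lines or siRNAs. Replicates differed by a chi-square per degree of freedom of 4.40 to 16.6, more than sampling noise gives. Same-numbered replicates of both groups carry the same date in the labels' sample descriptions, a different one for each number. They were taken as pairs in the pairwise differences, the sign-flip test and the replicate block. The main edgeR test and the permutation test did not use this pairing. Deviations of paired libraries from group means correlated across genes at 0.055, -0.095 and 0.045, and genes are not independent.

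The 9 genes and the lists were chosen with earlier results of these data known. Named are the 9 genes, RPS19, up to 4 genes per list with the smallest p past the test, RPL5, RPL11, NPM1, CDKN1A and CDKN2A, the 3 nearest genes by pattern, and overlapping genes, besides the cell type markers; RPS27L and PML were named after their values were seen. Symbols of the 132 list genes all matched. Promoters are from RefSeq (GRCh38.p14, 35116 windows), and their coordinates are not those of hg19. Alternatives were 3 other scalings, 2 filters, DESeq2 1.42.0, limma-voom (limma 3.58.1), the replicate block, the authors' RPKM and leaving out each library.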

Additional observations from a re-analysis of the deposited data

How the results depend on the processing

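MDM2, PPM1D, CCNG1, RFWD2, USP7 and TP63 kept their direction under every alternative run, and their call under each one that gives a test. TMM sets the zero of these comparisons: library totals add 0.29 to every log2 value and upper-quartile factors 0.17. MDM4 turned to 0.11 under library totals, 0.0011 under upper-quartile factors and 0.12 in the authors' RPKM, and was called at -0.22 with no filter (adjusted p = 0.00522); leaving out 1 library gave -0.25 to -0.085. RCHY1 was called at 0.46 under library totals, 0.35 under upper-quartile factors and 0.23 with a minimum mean of 1 CPM; leaving out 1 library gave 0.073 to 0.23, and it was called without siOTP library 3 (0.21, adjusted p = 0.0463) or siRPS19 library 1 (0.23, adjusted p = 0.0367). The replicate block, which pairs the libraries, called RCHY1 at 0.18 and changed no other call among the 9 genes. The group values of the authors' RPKM, scaled to group totals and without a test, gave log2 ratios of 2.86 for MDM2, 2.06 for PPM1D, 2.10 for CCNG1, 0.46 for RCHY1, 0.62 for RFWD2, -0.41 for USP7 and -0.41 for TP63. Leaving out each library gave 2.53 to 2.61 for MDM2, 1.73 to 1.81 for PPM1D, 1.79 to 1.85 for CCNG1, 0.29 to 0.35 for RFWD2, -0.72 to -0.67 for USP7, -0.82 to -0.60 for TP63 and 2.64 to 2.82 for the log2 ratio of MDM2 to MDM4. It gave 4 to 5 of the 9 genes higher and 2 to 3 lower. Under library totals the lists counted 11 of 17 other ligases higher and 4 of 12 deubiquitinases lower. In the list of partners of p63 and p73, 2 of 8 were lower. Of 12 enzymes and cofactors that restrain p53, 2 were higher, as also under upper-quartile factors. Library totals called 9114 of all 17171 tested genes higher and 4734 lower, and upper-quartile factors 8187 and 5505. Depth limits TP73 most, at 23 counts over the siOTP and 39 over the siRPS19 libraries.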

Other observations

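Of the 28 genes activated by p53, 21 had a RefSeq promoter window, and 3 of these (DDB2, AEN and FAS, 14.3%) held a p53 response element by the search used for the 9 genes, against 0.359% of all genes with a window. The list was chosen for known activation by p53 and with its rise in these data already known, and no test was made of this share.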
